A study of Saccharomyces cerevisiae with 9 samples.

Results

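The genes described are the 56 genes for small subunit proteins of the cytosolic ribosome of budding yeast, from RPS0A to RPS31. They were taken by name from the 7036 genes of the deposited tables, and membership rests on the name, not on a measured value. They comprised 24 pairs of duplicated genes and 8 single-copy genes, among them RPS3 and RPS13. All 56 had a promoter window and a gene body window, and all 56 passed the filter on low counts in both tables.

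The data came from chromatin immunoprecipitation followed by sequencing (ChIP-seq), in which DNA recovered with a tagged protein is sequenced and counted along the genome. Each of 3 strains carried a TAP tag, an affinity tag bound by IgG, on Rvb1, Rvb2 or Pgk1. The pulldown of Pgk1, which works in glycolysis, was the control. All 9 libraries came from W303 cells grown at 30 °C and then starved of glucose for 10 min, so there was no unstarved group, and no difference can be assigned to starvation. Each strain gave 2 pulldown libraries and 1 input library, which is chromatin without pulldown. The 3 inputs formed 1 group. Whether replicate pulldowns came from different cultures is not in the labels, and the p-values rest on a spread between libraries that may be technical. What the data count is DNA recovered in a window, and neither RNA nor protein was measured.

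Small subunit proteins bind the 18S ribosomal RNA and form the particle that scans messenger RNA and decodes it. Yeast transcribes their genes among the most active of all in growing cells, through the factors Rap1, Fhl1, Ifh1 and Sfp1, and shuts them down quickly when glucose runs out. Rvb1 and Rvb2 are related AAA+ ATPases that form a ring together. They belong to the INO80 and SWR1 chromatin remodelling complexes and to a chaperone complex that helps assemble the RNA-protein particles that modify ribosomal RNA.

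Promoter totals ran from 806134 counts in Pgk1 replicate 1 to 4636420 in the Pgk1-strain input. No window exceeded 1151 counts in any library, so counts stood under a ceiling. The small subunit promoters had reached a median of 53.9% to 57.0% of it in the inputs and 11.7% to 30.2% in the pulldowns. Levels are given as normalised CPM, read counts scaled to the library size with the TMM factors of edgeR, and differences as log2 fold changes with a standard error (SE). A window was called at an edgeR adjusted p under 0.05 over all windows of its table.

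Pgk1 replicate 1 stood apart from the other libraries at these genes. In this shallowest library the median small subunit promoter lay 0.44 log2 above the median of all promoter windows, at the 82.7th percentile of its windows. In Pgk1 replicate 2 it lay 0.01 above, at the 54.2nd percentile. The median was 0.02 and -0.07 in the Rvb1 replicates, 0.12 and -0.04 in the Rvb2 replicates, and 0.00 to 0.02 in the 3 inputs. Pgk1 replicate 1 was the highest of the 9 libraries at 46 of the 56 promoters (82.1%), against 21.1% of all promoter windows. The 81 large subunit genes, whose proteins form the other ribosomal subunit, showed the same split, with a median of 0.43 in Pgk1 replicate 1 and 0.01 in replicate 2. The 67 mitochondrial ribosomal protein genes had -0.03 and 0.00. Small subunit medians and promoter calls, and leading promoter differences from Pgk1, are therefore also given without Pgk1 replicate 1.

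At gene bodies the libraries ordered differently. The median small subunit gene body was below the median of all windows in each of the 4 Rvb libraries, at -0.16 and -0.06 in Rvb1 and at -0.17 and -0.09 in Rvb2. It was above in the Pgk1 libraries, at 0.11 and 0.02. The inputs lay between -0.02 and 0.02.

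**Figure D1:**
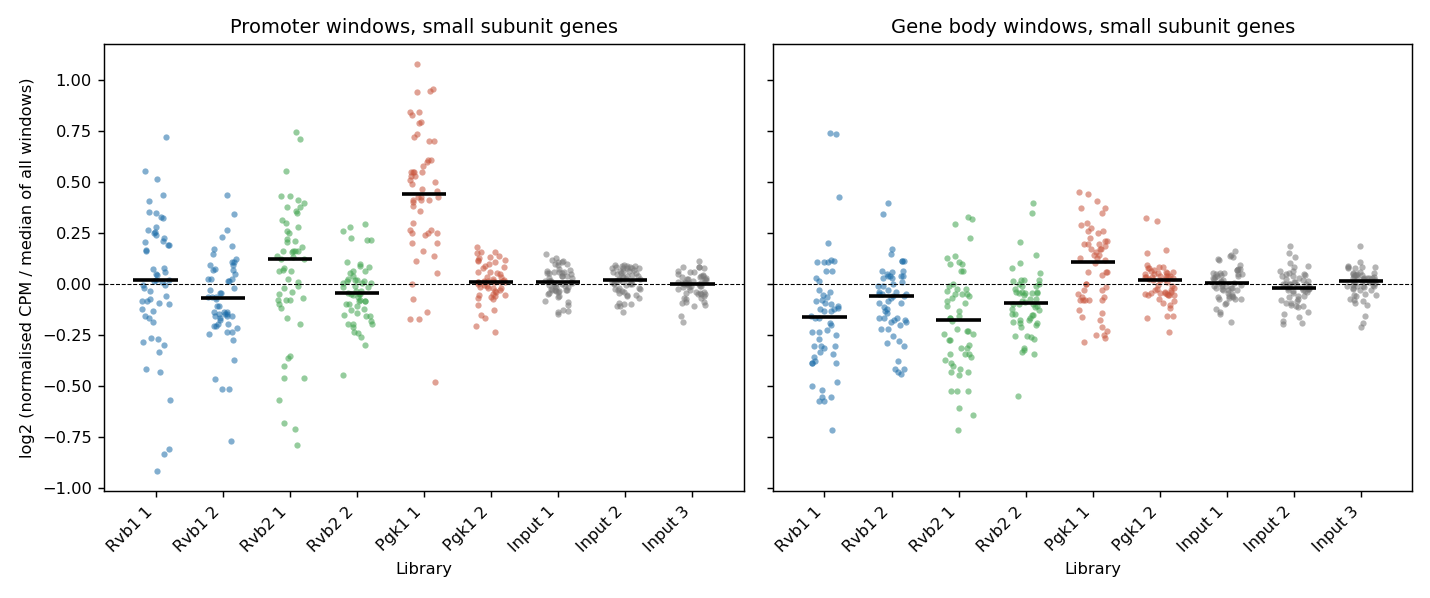
Level of each of the 56 small subunit genes in each library (points) on a log2 scale, relative to the median of all windows of that library (dashed line), with the members' median as a black bar. Inputs 1 to 3 are those of the Rvb1, Rvb2 and Pgk1 strains. The promoter median stands at 0.44 in Pgk1 replicate 1 and within 0.12 of the dashed line in the other libraries.

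The small subunit genes also differed from each other more in some pulldowns than in others, as all promoter windows did. The standard deviation (SD) of the log2 promoter level over the 56 genes was 0.06 to 0.07 in the inputs. Poisson counting error at the median count gives 0.06 there, a figure that ignores the ceiling, under which counting error is smaller. The ceiling also compresses the spread, most of all in the inputs. The SD was 0.33 and 0.21 in Rvb1, 0.33 and 0.15 in Rvb2, and 0.32 and 0.09 in Pgk1. Replicate 1 had the wider spread in each of the 3 pairs of pulldowns. Over all promoter windows the SD was 0.65 and 0.45 in Rvb1, 0.57 and 0.40 in Rvb2, and 0.50 and 0.24 in Pgk1. In the inputs it was 0.15 to 0.27. The SD of all windows was thus above that of the 56 genes in every library, and replicate 1 was again the wider. Counting error at the median count gave 0.08 to 0.12 in the pulldowns.

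At promoters, 5 small subunit genes fell in the Rvb1 pulldown relative to Pgk1 and none rose. Of all promoter windows 24.3% passed the same test, 12.3% higher and 12% lower, so the 5 of 56 are a smaller share than the background. The median log2 fold change of the 56 was -0.21, within a range of -0.75 to 0.30, and 46 values were below 0. The median of all promoter windows was -0.05. At an unadjusted p under 0.05 there were 16 genes (42.7% of all windows), 15 of them lower. Both Rvb1 libraries lay below both Pgk1 libraries at 24 of the 56 promoters and above at 1 (RPS28A), where all windows gave 28.2% and 28.4%.

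Of these 5 promoters, 4 are described by name. RPS22B (YLR367W) encodes a body protein with a bacterial counterpart, and its gene holds the small nucleolar RNA gene SNR44. The promoter had 71.3 and 78.2 CPM in Rvb1, 81.5 and 97.9 in Rvb2, 120 and 129 in Pgk1, and 134, 131 and 127 in the inputs. Here all 4 Rvb libraries were below all 5 others, and neither Pgk1 library exceeded the highest input. The gene fell by 0.75 (SE 0.19, edgeR adjusted p = 0.0194) in Rvb1.

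RPS30A (YLR287C-A), RPS11A (YDR025W) and RPS13 (YDR064W) encode further proteins of the body and platform. The RPS30A promoter had 112 and 124 CPM in Rvb1, 125 and 120 in Rvb2, 185 and 146 in Pgk1, and 141, 136 and 136 in the inputs. The RPS11A promoter had 128 and 116 CPM in Rvb1, 127 and 130 in Rvb2, 193 and 152 in Pgk1, and 137, 145 and 139 in the inputs. At both promoters Pgk1 replicate 1 was the highest library and the Rvb libraries lay below all Pgk1 and input libraries. RPS30A fell by 0.42 (SE 0.11, edgeR adjusted p = 0.0226) and RPS11A fell by 0.42 (SE 0.12, edgeR adjusted p = 0.0268). The RPS13 promoter had 118 and 93.4 CPM in Rvb1, 104 and 124 in Rvb2, 155 and 135 in Pgk1, and 137, 138 and 138 in the inputs. It fell by 0.38 (SE 0.12, edgeR adjusted p = 0.0387), and it was the only single-copy gene among the 5.

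Without Pgk1 replicate 1 the median of the 56 promoters was -0.0056, and that of all windows was -0.01. In that fit 6 genes were called, and 27.3% of all promoter windows. RPS22B (-0.79), RPS30A (-0.32) and RPS11A (-0.30) stayed among them, RPS25B (-0.27) and RPS9A (0.30) joined, and RPS13 did not pass (-0.32, edgeR adjusted p = 0.0728). Without Pgk1 replicate 2 the median was -0.45, and that of all windows was -0.02. Without Rvb1 replicate 1 none was called, while the count was 11 without Rvb1 replicate 2, 10 without Rvb2 replicate 1 and 8 without Rvb2 replicate 2. All 5 genes kept a negative value in each of the 18 alternatives run, but not the call. It was lost in 12 of the alternatives for RPS13, 4 for RPS22B, 4 for RPS11A and 3 for RPS30A.

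**Figure D2:**
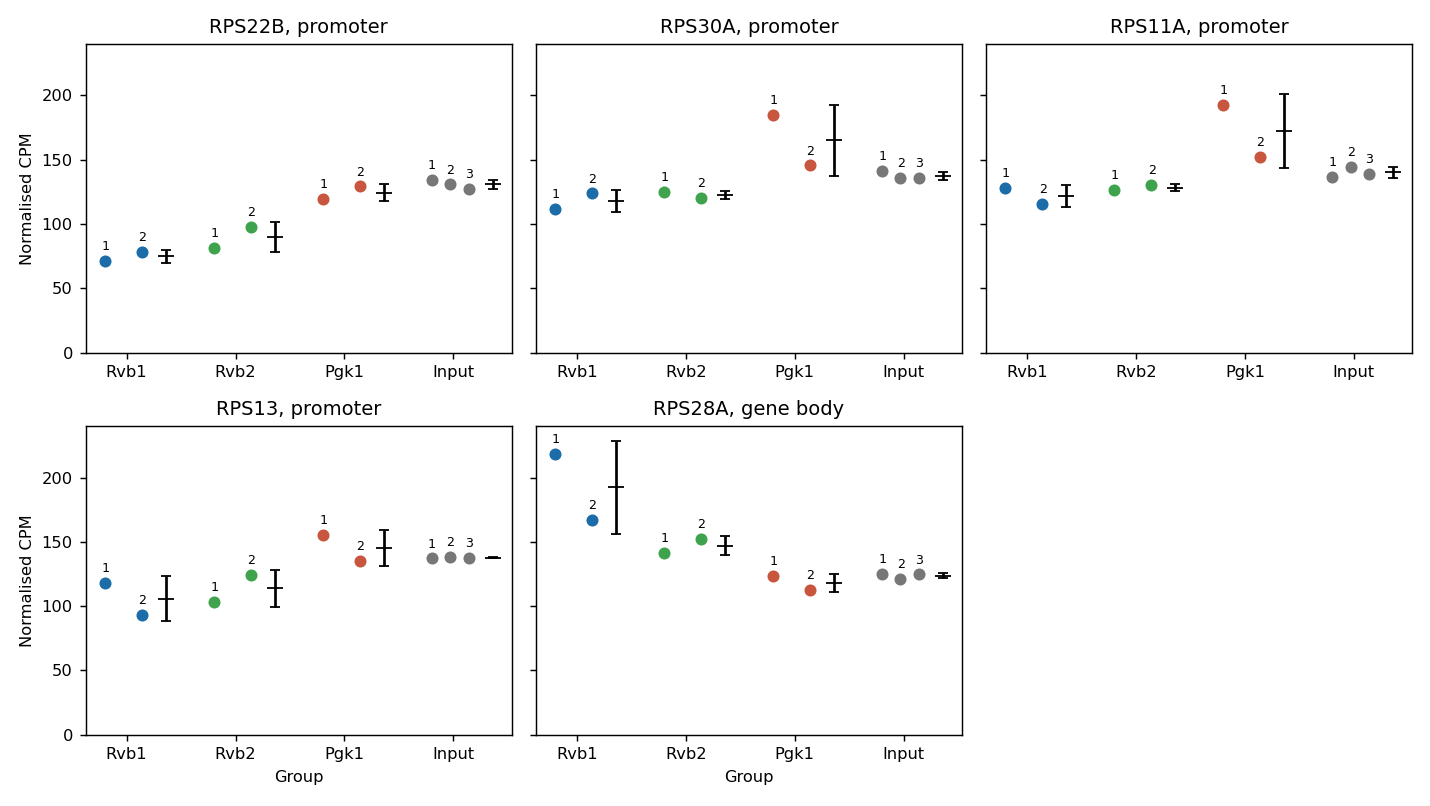
Normalised CPM on a linear axis from 0 in each library (points, with the replicate or input number above) for 4 of the 5 called promoters and the gene body of RPS28A, with the group mean and SD as a black bar (n = 2, inputs n = 3). At RPS22B both Rvb1 points lie below every Pgk1 and input point, and at the RPS28A gene body both lie above every other point.

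The promoters with the highest values in Rvb1 against Pgk1 were RPS3 (0.30, SE 0.21), RPS28A (0.25, SE 0.11) and RPS30B (0.18, SE 0.17), and none passed the test. Their values without Pgk1 replicate 1 were 0.54, 0.17 and 0.38, and none passed. RPS3, a head protein at the entry of the messenger RNA channel, had 222 and 160 CPM in Rvb1, 218 and 162 in Rvb2, 190 and 133 in Pgk1, and 136, 143 and 137 in the inputs. In all 3 strains replicate 1 was higher than replicate 2, so the groups overlapped. Within each replicate number both Rvb libraries were above the Pgk1 library, but the labels do not pair libraries by that number.

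In the Rvb2 pulldown no small subunit promoter was called against Pgk1, as in 0% of all promoter windows. At an unadjusted p under 0.05 edgeR gave 9 (17.4% of all windows), all lower, and DESeq2 called none after adjustment. The median was -0.15, against -0.03 over all windows, and 50 of 56 values were below 0. Among the lowest values were RPS22B (-0.47, SE 0.19) and RPS29B (-0.46, SE 0.13), and the highest were RPS3 (0.27, SE 0.22), RPS9A (0.16, SE 0.13) and RPS28A (0.12, SE 0.11). Both Rvb2 libraries lay below both Pgk1 libraries at 16 promoters, where all windows gave 20.7%. Without Pgk1 replicate 1 the median was 0.03, with RPS22B at -0.52, RPS29B at -0.45, RPS3 at 0.51, RPS9A at 0.31 and RPS28A at 0.03, and without replicate 2 the median was -0.43. The Rvb1 and Rvb2 comparisons share the same Pgk1 libraries.

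In the direct comparison of Rvb1 with Rvb2, edgeR called no small subunit gene in either table, as in 0% of all windows. At an unadjusted p under 0.05 there were 0 promoters and 6 gene bodies (5.91% and 7.36% of all windows), and DESeq2 called none of the 56. The median difference was -0.05 at promoters and 0.03 at gene bodies. Single promoters differed by -0.30 to 0.28.

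**Figure D3:**
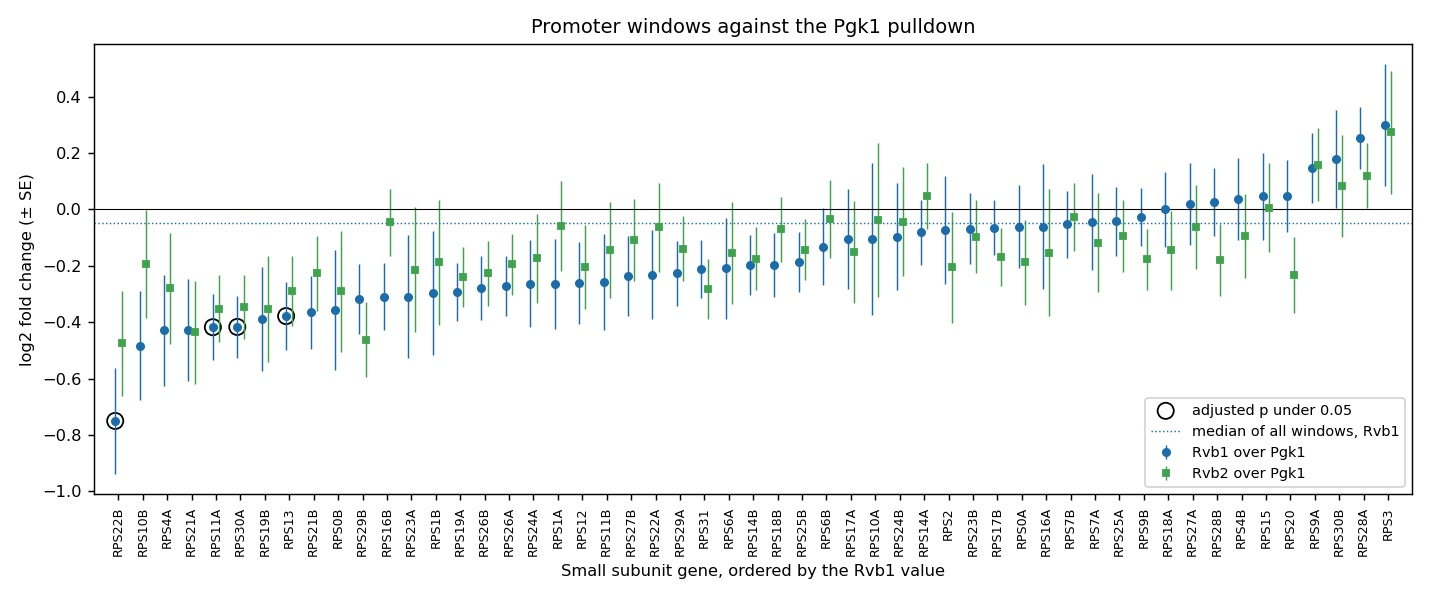
Log2 fold change against Pgk1 at the promoter of each small subunit gene but 3 for Rvb1 (circles) and Rvb2 (squares), with the SE as error bars and rings at 4 of the 5 genes called in Rvb1. The dotted line is the median of all promoter windows in Rvb1, -0.05. The median of all 56 is -0.21 in Rvb1 and -0.15 in Rvb2.

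At gene bodies, 5 small subunit genes fell and 1 rose in Rvb1 against Pgk1. Over all gene body windows 13.8% were called, 6.7% higher and 7.08% lower. The median of the 56 was -0.18 against -0.05 over all windows, and 47 values were below 0. There were 19 genes (36.8% of all windows) with an unadjusted p under 0.05, 16 of them lower. Both Rvb1 libraries lay below both Pgk1 libraries at 32 of the 56 gene bodies, where all windows gave 24.9%, and above at 2 (RPS28A and RPS29A), where all windows gave 23.8%. Without Pgk1 replicate 1 the median was -0.16, against -0.02 over all windows. RPS19B, RPS26A and RPS29A, which were not called in the main fit, stood at -0.39, 0.42 and 0.54 there. Without Pgk1 replicate 2 the median was -0.21 and none was called, and without Rvb1 replicate 1 none was called. Leaving out any 1 input left RPS28A alone, while the count was 19 without Rvb1 replicate 2 and 11 without either Rvb2 library. With the Rvb1-strain and Rvb2-strain inputs averaged as 1 library, RPS28A was likewise the only call.

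The gene body that rose was RPS28A (YOR167C), for a small protein at the exit of the messenger RNA channel. It had 218 and 167 CPM in Rvb1, 142 and 152 in Rvb2, 123 and 113 in Pgk1, and 125, 121 and 125 in the inputs. All 4 Rvb libraries were above all 5 others. It rose by 0.75 (SE 0.13, edgeR adjusted p = 0.0166) in Rvb1, and the Rvb2 value was 0.35 (SE 0.14, edgeR adjusted p = 0.417). The promoter of the same gene stood at 139 and 136 CPM in Rvb1 and 94.4 and 123 in Pgk1.

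RPS29A, a zinc-binding head protein, and RPS26A, a protein at the messenger RNA exit, were the next highest gene bodies. RPS29A had 219 and 173 CPM in Rvb1, 163 and 142 in Rvb2, 168 and 136 in Pgk1, and 128, 130 and 135 in the inputs. It had a value of 0.41 (SE 0.17) and RPS26A one of 0.31 (SE 0.14) in Rvb1. Neither passed the test in the fit of all 9 libraries. Without Pgk1 replicate 1 RPS29A stood at 0.54 and RPS26A at 0.42.

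The 5 gene bodies that fell were RPS21B (YJL136C), RPS18B (YML026C), RPS11B (YBR048W), RPS19A (YOL121C) and RPS9B (YBR189W). RPS21B, a body protein, had 89.3 and 98.6 CPM in Rvb1, 104 and 106 in Rvb2, 130 and 135 in Pgk1, and 133, 125 and 131 in the inputs, and it fell by 0.51 (SE 0.13, edgeR adjusted p = 0.0314). RPS18B, a head protein at the contact with the large subunit, had 88.0 and 101 CPM in Rvb1, 97.2 and 122 in Rvb2, 125 and 136 in Pgk1, and 135, 124 and 137 in the inputs, and it fell by 0.50 (SE 0.14, edgeR adjusted p = 0.0363). At both gene bodies the 4 Rvb libraries lay below every Pgk1 and input library.

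RPS11B fell by 0.39 (SE 0.11, edgeR adjusted p = 0.0375), from 136 and 139 CPM in Pgk1 to 100 and 113 in Rvb1. RPS19A, a head protein needed to mature the 18S RNA, fell by 0.36 (SE 0.10, edgeR adjusted p = 0.0373), from 145 and 141 CPM to 106 and 116. RPS9B, a protein beside the messenger RNA entry that influences decoding accuracy, fell by 0.36 (SE 0.11, edgeR adjusted p = 0.0422), from 136 and 137 CPM to 100 and 116. Rvb1 and Pgk1 did not overlap at any of the 3 genes. No small subunit gene was called both at its promoter and at its gene body in Rvb1 against Pgk1.

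In Rvb2 against Pgk1 no gene body was called, as in 0% of all windows, by edgeR or by DESeq2. At an unadjusted p under 0.05 there were 12 (10.8% of all windows), of which 11 were lower and RPS28A was higher. The median was -0.16 against -0.03 over all windows, and 52 of 56 values were below 0. Both Rvb2 libraries lay below both Pgk1 libraries at 29 gene bodies, where all windows gave 18.6%. Without Pgk1 replicate 1 the median was -0.16, and without replicate 2 it was -0.17. The lowest value was RPS19B (-0.51, SE 0.14), with 104 and 90.4 CPM in Rvb2 and 127 and 141 in Pgk1.

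Against the inputs, small subunit promoters in Rvb1 had a median of -0.01, with 28 values on each side of 0. Of the 56, 13 fell and 2 rose, 26.8% in all, while 51.8% of all promoter windows were called, 26.4% lower and 25.4% higher. There were 18 (59.4% of all windows) with an unadjusted p under 0.05. RPS22B fell by 0.81 (SE 0.17) and RPS10B, a head protein, by 0.59 (SE 0.17), with edgeR adjusted p of 0.00479 and 0.0123. The 2 that rose were RPS3 (0.47, SE 0.18, edgeR adjusted p = 0.0435) and RPS9A (0.27, SE 0.10, edgeR adjusted p = 0.0368). Of the 5 promoters called against Pgk1, RPS11A was not called against the inputs (-0.19). Without Rvb1 replicate 1 none of the 56 was called, and without input 1, 2 or 3 there were 5, 3 and 5. With the Rvb1-strain and Rvb2-strain inputs averaged there were 4.

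At gene bodies 16 fell and 3 rose in Rvb1 against the inputs, where 48.9% of all windows were called, 25.7% lower and 23.2% higher. There were 24 (58% of all windows) with an unadjusted p under 0.05. The median was -0.15, and both Rvb1 libraries lay below all 3 inputs at 37 of the 56 gene bodies, where all windows gave 39.4%. The genes that rose were RPS28A (0.65, SE 0.11), RPS29A (0.59, SE 0.14) and RPS26A (0.29, SE 0.11). The lowest were RPS18B (-0.49, SE 0.12), RPS21B (-0.47, SE 0.11) and RPS22B (-0.46, SE 0.15). Without Rvb1 replicate 1 none was called, and without input 1, 2 or 3 there were 6, 6 and 7. With the Rvb1-strain and Rvb2-strain inputs averaged there were 7.

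Rvb2 against the inputs gave no call in either table, nor did Pgk1, and 0% of all windows were called in these comparisons. In Rvb2, edgeR gave 9 promoters and 15 gene bodies at an unadjusted p under 0.05 (38% and 30.4% of all windows), with medians of 0.02 and -0.16. DESeq2 called 4 promoters in Rvb2, all lower, among them RPS22B (-0.53), RPS29B (-0.44) and RPS21A (-0.42). In Pgk1, edgeR gave 7 promoters and 0 gene bodies at that level (9.62% and 8.54% of all windows), with medians of 0.12 and 0.02. DESeq2 called RPS0B (0.51) and RPS16A (0.53) in Pgk1, and no gene body in Pgk1 or Rvb2. Relative to the Pgk1-strain input, RPS0B stood at 0.97 in Pgk1 replicate 1 and 0.18 in replicate 2. RPS16A stood at 0.91 and 0.13. The share of all windows that DESeq2 called is not given here. In Rvb2, edgeR called 5 promoters and 7 gene bodies without either Rvb1 library, 4 promoters without either Pgk1 library, with 3 and 2 gene bodies without Pgk1 replicate 1 and 2, and 6 promoters without Rvb2 replicate 2. Relative to the input of its own strain, the promoter median was 0.42 in Pgk1 replicate 1 and 0.01 in replicate 2. With replicate 1 as the only Pgk1 library in the fit, the promoter median against the inputs was 0.42, and that of all windows was -0.04.

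In the inputs, the small subunit genes had near-equal counts in both windows. The promoter window held 49.8% ± 0.307 (SD, n = 3) of the reads of both windows. The pulldown shares were 60.3% and 53.2% in Rvb1, 59.4% and 52.6% in Rvb2, and 57.5% and 49.9% in Pgk1. The group means were 56.8% ± 5.07 (SD, n = 2), 55.96% ± 4.81 (SD, n = 2) and 53.7% ± 5.34 (SD, n = 2). Replicate 1 was higher than replicate 2 in all 3 strains, and the groups overlapped. Within each replicate number both Rvb shares were above the Pgk1 share, but the labels do not pair libraries by that number. For all genes the share in Pgk1 was 50.7% and 49.8%, and in Rvb1 55.96% and 52.5%.

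**Figure D4:**
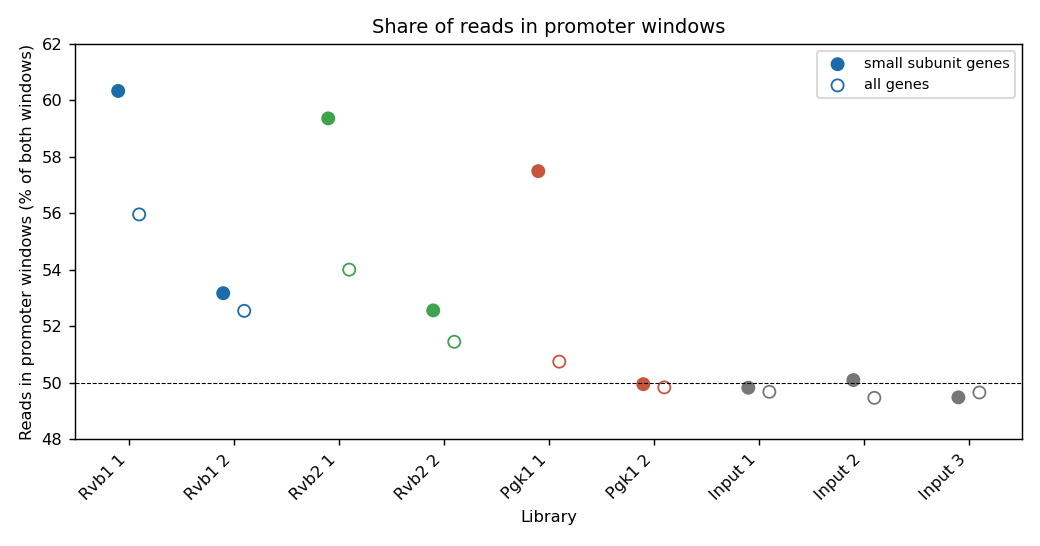
Share of reads in promoter windows, as a percentage of the reads in both windows, in each library for the 56 small subunit genes (filled) and all 7036 genes (open). The axis runs from 48% to 62%, and the dashed line marks 50%. The members reach 57.5% to 60.3% in the replicate 1 pulldowns and 49.9% to 53.2% in the replicate 2 pulldowns.

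Whether the difference between Rvb1 and Pgk1 was larger at the promoter than at the gene body was tested within libraries. It was higher at the promoter for 3 small subunit genes, RPS9B (0.62, SE 0.18, edgeR adjusted p = 0.0337), RPS18A (0.53, SE 0.17, edgeR adjusted p = 0.0422) and RPS17B (0.63, SE 0.20, edgeR adjusted p = 0.0445), and lower for none. The other copy of each of these pairs did not pass. Over all genes 28.4% were called, 24.6% higher and 3.84% lower. At an unadjusted p under 0.05 there were 13 members (45% of all genes). The members' median was 0.31 and that of all genes 0.28. No call was left without Rvb1 replicate 1, without Pgk1 replicate 2, without any 1 of the inputs or with the pulldowns alone. The count was 30 without Rvb1 replicate 2, 12 without Pgk1 replicate 1, 7 without Rvb2 replicate 1 and 6 without Rvb2 replicate 2. RPS29A had the lowest value (-0.39, SE 0.14, edgeR adjusted p = 0.0558). For Rvb2 none was called, as in 0% of all genes, with 1 at an unadjusted p under 0.05 (17% of all genes). The Rvb2 median was 0.21 for the members and 0.15 for all genes.

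The copies of a pair encode identical or nearly identical proteins, but the values of their promoters often differed. At the promoter in Rvb1 against Pgk1, both copies were below 0 in 18 of the 24 pairs, and the copies differed by a median of 0.17 log2. Pearson's r between the copies was 0.17 over the 24 pairs, which share the libraries. The RPS30 pair differed most, with -0.42 for RPS30A and 0.18 for RPS30B. RPS30B had 162 and 135 CPM in Rvb1 and 177 and 116 in Pgk1, so its groups overlapped. The RPS22 copies stood at -0.23 and -0.75 and the RPS4 copies at -0.43 and 0.04. In the fit without Pgk1 replicate 1 these were -0.32 and 0.38 for RPS30, 0.00 and -0.79 for RPS22, and -0.12 and 0.15 for RPS4. The copies of RPS7 (-0.05 and -0.05), RPS26 (-0.27 and -0.28) and RPS1 (-0.26 and -0.30) differed least. The SE of a single promoter was 0.10 to 0.27, and differences between copies were not tested.

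The partners of RPS22B and RPS11A were not called themselves. RPS22A had 136 and 120 CPM in Rvb1 and 201 and 130 in Pgk1. RPS11B had 142 and 128 in Rvb1 and 217 and 135 in Pgk1. Rvb1 and Pgk1 overlapped at both.

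At gene bodies the widest differences were in the RPS29 pair (0.41 and -0.36), the RPS28 pair (0.75 and 0.00) and the RPS21 pair (0.07 and -0.51). RPS28B, whose messenger RNA is bound and destabilised through its own protein, had 122 and 119 CPM in Rvb1 and 111 and 125 in Pgk1, so its groups overlapped. RPS21A had 141 and 107 in Rvb1 and 125 and 119 in Pgk1. The other partners were RPS11A (104 and 134 CPM in Rvb1, 123 and 131 in Pgk1), RPS18A (120 and 122 CPM in Rvb1, 147 and 137 in Pgk1), RPS19B (102 and 115, then 127 and 141) and RPS9A (117 and 126, then 107 and 129). Rvb1 lay below Pgk1 at RPS18A and RPS19B and overlapped with it at RPS21A, RPS11A and RPS9A. The sources used here do not say how reads that match both copies were assigned, so gene body values of pairs with near-identical coding sequence are uncertain.

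**Figure D5:**
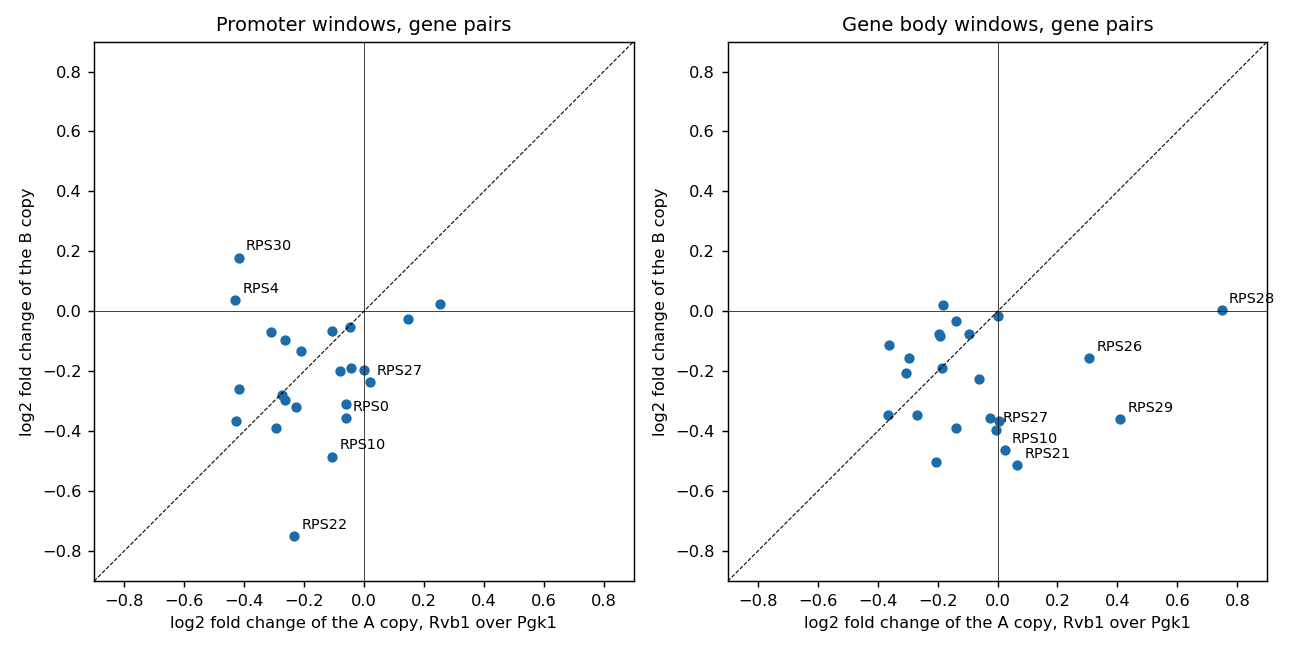
Log2 fold change of Rvb1 over Pgk1 for the A copy (x axis) and the B copy (y axis) of the gene pairs but 1, at promoters and gene bodies, with the 6 widest differences shown in each panel named. The dashed line marks equal values, and Pearson's r over all 24 pairs is 0.17 at promoters and 0.08 at gene bodies.

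By place in the mature subunit, 22 of the genes encode proteins of the head and 34 encode proteins of the body and platform. In Rvb1 against Pgk1, 5 of the 34 body and platform promoters were called (14.7%, median -0.25) and 0 of the 22 head promoters (median -0.15), both below the 24.3% of all windows. The counts were 5 and 1 without Pgk1 replicate 1, with medians of 0.00 and -0.02. At gene bodies the head genes gave 1 higher and 2 lower calls (RPS28A, RPS18B and RPS19A) and the body and platform genes 3 lower (RPS9B, RPS11B and RPS21B), with medians of -0.16 for the head and -0.18 for the body and platform. These are 13.6% and 8.82% of the genes, against 13.8% of all windows. The 8 single-copy genes gave 1 call at promoters (RPS13) and 0 at gene bodies, with medians of -0.14 and -0.16. The differences between these classes were not tested.

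A divergent gene starts upstream of 33 of the 56 genes, so that its promoter window can cover the same sequence. For 31 of these the neighbour had a window. In Rvb1 against Pgk1 the values of member and neighbour lay within 0.1 of each other in 17 of the 31, with a median difference of 0.07. They had the same sign in 24. Among the 31 neighbours, 4 were called, against 24.3% of all promoter windows. They were RPL13A (-0.38, beside RPS16B), LCB3 (-0.33, beside RPS21B), TSR1 (-0.48, beside RPS29B) and GLN4 (0.46, beside RPS28A). RPS16B (-0.31), RPS21B (-0.37), RPS29B (-0.32) and RPS28A (0.25) themselves did not pass the test. The fit without Pgk1 replicate 1 called TSR1 (-0.42) and GLN4 (0.43), and RPL13A (-0.25) and LCB3 (-0.25) did not pass there. Wide differences were those of RPS26B against COM2 (-0.28 and 0.44) and RPS30B against FYV12 (0.18 and -0.31).

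The other ribosomal genes and the genes that act on them were measured in the same fits, in which 24.3% of all promoters (12.3% higher, 12% lower) and 13.8% of all gene bodies (6.7% higher, 7.08% lower) were called in Rvb1 against Pgk1. Of 81 large subunit genes, 3 rose and 11 fell at promoters in Rvb1 against Pgk1, 17.3% in all with a median of -0.18. At gene bodies 1 rose and 8 fell, 11.1% in all with a median of -0.16. Of 67 mitochondrial ribosomal protein genes, 20 rose and none fell at promoters (29.9%, median 0.24), and 16 rose and none fell at gene bodies (23.9%, median 0.31). The promoter counts without Pgk1 replicate 1 were 4 higher and 6 lower with a median of -0.04 for the large subunit, and 18 higher and 1 lower with a median of 0.23 for the mitochondrial genes. Differences between these lists and the small subunit genes were not tested.

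Of 61 assembly factors of the small subunit, which fold, cleave and modify the precursor RNA, 4 rose and 12 fell at promoters (26.2%, median -0.25), and none rose and 16 fell at gene bodies (26.2%, median -0.41). Without Pgk1 replicate 1 their median was -0.30 at promoters and -0.48 at gene bodies, against -0.01 and -0.02 over all windows. TSR1, a factor of late cytoplasmic maturation, fell by 0.48 at its promoter (SE 0.11, edgeR adjusted p = 0.0164). RRP12, an export factor, rose by 0.51 (SE 0.12, edgeR adjusted p = 0.0183), and NOP9 fell by 0.68 (SE 0.17, edgeR adjusted p = 0.0192). Of 20 regulators of ribosomal protein genes, 3 rose and 1 fell at promoters (20%, median 0.07), and 1 rose and 6 fell at gene bodies (35%, median -0.32). When Pgk1 replicate 1 was left out, the median of the regulators was -0.0075 at promoters and -0.41 at gene bodies. RRP7, whose protein joins Utp22 and Ifh1 in a complex, rose by 0.68 (SE 0.17, edgeR adjusted p = 0.0185), as did SFP1, an activator of these genes, by 0.54 (SE 0.14, edgeR adjusted p = 0.0213) and STB3, a repressor of ribosome biogenesis genes, by 0.50 (SE 0.14, edgeR adjusted p = 0.0281). UTP22 fell by 0.41 (SE 0.14, edgeR adjusted p = 0.0461), and it did not pass without Pgk1 replicate 1 (-0.24). At the gene bodies RRP7 rose by 0.79 and SFP1, STB3 and UTP22 fell by 0.41, 0.49 and 0.67, with edgeR adjusted p of 0.0383, 0.0447, 0.0353 and 0.0354. Of these 4, STB3 did not pass without Pgk1 replicate 1 (-0.40, edgeR adjusted p = 0.0519). In Rvb2 against Pgk1 none of these 4 lists held a call in either table.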

How the data were processed

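The authors deposited raw counts of reads for each gene in a promoter table and a gene body table, with windows of 500 bp per the labels. The submitters' processing notes list FastQC, Bowtie2, SAMtools, Picard, deepTools and bedtools. The sources used here do not give the genome build, where the windows lie, or how duplicate and multiply mapped reads were handled, so no coordinates or sequences are printed. A position ceiling near 1150 compresses differences, most of all in the inputs. The R64 reference table was used for names and neighbours, and it matched 5956 identifiers. The labels' replicate numbers do not pair libraries across strains.

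Counts were filtered (filterByExpr), normalised (TMM) and tested with edgeR 4.0.16 (quasi-likelihood, R 4.3.3) in 1 fit of 9 libraries and 4 groups per table, with 5 residual degrees of freedom and Benjamini-Hochberg adjustment over all windows. The SE was derived from the test's F statistic and covers neither strain nor culture effects. All groups shared 1 estimate of the spread, although the inputs were more alike than replicate pulldowns. The promoter chi-square per degree of freedom between 2 libraries of a group was 0.607 to 2.35 in the inputs. It was 6.17 in Rvb1, 4.34 in Rvb2 and 9.20 in Pgk1. The windows of a gene were also fitted together, with each library as a block, to test promoter against gene body. The fits were tested on simulated data. Alternatives included DESeq2 1.42.0. Between the Rvb1-strain and Rvb2-strain inputs the promoter chi-square was 0.607 per degree of freedom. This is under Poisson noise but above the 0.460 expected from counting under the ceiling. An excess over counting cannot tell separate samples from repeat libraries of the same chromatin. Both inputs were kept in the main fit. Against the Pgk1-strain input they gave 2.30 and 2.35. Whether they share a source is not in the labels, and an alternative averages them as 1 library.

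This gene family was picked as the subject, and the lists (regulators, assembly factors, head proteins) were drawn up, with earlier results of these data known, although membership of the family follows from the gene name. Named genes are those called in Rvb1 or Rvb2 against Pgk1, the 3 highest and 3 lowest of each such comparison, their partners, the 3 pairs with the widest and the 3 with the narrowest difference at promoters, and the 3 genes of each list with the smallest p. Genes named for a comparison with the inputs, for promoter against gene body, as neighbours or under an alternative, and UTP22, were chosen after their values were seen. Promoter motifs and protein identity of the pairs were not run, since they need sequences not used here. Some genes that these rules take are not reported here by name, and they stay in the counts and medians.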

Additional observations from a re-analysis of the deposited data

How the results depend on the processing

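In Rvb1 against Pgk1, where edgeR called 5 small subunit promoters, DESeq2's test called 10 (the same 5 and 5 others), the fit relative to each strain's own input 0 and the 6 pulldowns alone 1. The own-input fit has fewer degrees of freedom. For the 6 gene bodies the counts were 2 with the ceiling correction, 0 relative to own input, 1 with the pulldowns alone and 1 with the Rvb inputs averaged, an alternative added after seeing the data. Where 3 genes were called for promoter against gene body, the pulldowns alone gave 0.

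Against the inputs, the 15 promoters in Rvb1 became 9 with totals over both tables as library size (median 0.038), 1 relative to own input and 4 with the inputs averaged. The 19 gene bodies became 12 with DESeq2, 47 with totals over both tables, 0 relative to own input and 7 with the inputs averaged. In Rvb2, DESeq2 called 4 promoters and totals over both tables gave 2, and in Pgk1 DESeq2 called 2, against 0.

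Totals over both tables shifted the median of all gene bodies to -0.21 in Rvb1 and -0.12 in Rvb2 against Pgk1, and to -0.30, -0.23 and -0.12 in Rvb1, Rvb2 and Pgk1 against the inputs. The members' medians moved to -0.35, -0.27, -0.44, -0.37 and -0.080. Relative to all windows these were -0.14, -0.14, -0.14, -0.14 and 0.04.

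Leaving out each library in turn gave these ranges at promoters. The count ran from 0 to 18 in Rvb1 against Pgk1 and from 0 to 1 in Rvb2 against Pgk1, and against the inputs from 0 to 22 in Rvb1, 0 to 6 in Rvb2 and 0 to 26 in Pgk1. The median ran from -0.45 to -0.0056 in Rvb1 and from -0.43 to 0.032 in Rvb2 against Pgk1, from -0.083 to 0.044 in Rvb1 against Rvb2, and against the inputs from -0.12 to 0.040 in Rvb1 and from -0.011 to 0.42 in Pgk1. At gene bodies the count ran from 0 to 19 in Rvb1 against Pgk1, 0 to 1 in Rvb1 against Rvb2, and against the inputs from 0 to 22 in Rvb1 and 0 to 7 in Rvb2. The median ran from -0.21 to -0.12 in Rvb1 and from -0.24 to -0.13 in Rvb2 against Pgk1, and against the inputs from -0.20 to -0.089 in Rvb1 and from -0.20 to -0.11 in Rvb2. Promoter against gene body in Rvb1 ran from 0 to 30. A group left with 1 library is assumed to vary like the others. The share of all windows called is not given for most of the alternative fits. Their counts therefore show only how far the calls depended on the fit and its libraries.

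Some uncalled genes changed sign. Between the fits without Pgk1 replicate 2 and without Pgk1 replicate 1, RPS30B at the promoter in Rvb1 ran from -0.23 to 0.38. In Rvb2 the promoters of RPS3 and RPS9A ran from -0.010 to 0.51 and from -0.21 to 0.31, and the RPS26A gene body from -0.075 to 0.28. The RPS29A gene body in Rvb2 gave -0.062 with totals over both tables, and it ran from -0.15 without Pgk1 replicate 2 to 0.15 without Pgk1 replicate 1 (-0.064 without Rvb2 replicate 1). The causes were not tested.

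Same-numbered pulldowns deviated together (r = 0.73 for Rvb1 and Rvb2, 0.23 for Rvb1 and Pgk1 and 0.35 for Rvb2 and Pgk1 at promoters), but the labels give the numbers no shared batch. With the replicate block in the fit of the pulldowns alone, 7 promoters and 7 gene bodies were called in Rvb1 against Pgk1 (medians -0.26 and -0.16) and 0 and 0 in Rvb2 (medians -0.18 and -0.16). Without the block, the pulldowns alone gave 1 promoter and 1 gene body in Rvb1 against Pgk1, and both stayed called with it. Relative to the main fit, which also holds the inputs, the blocked fit lost RPS13 at the promoter and RPS9B at the gene body. It gained RPS4A, RPS19B and RPS21B at promoters and RPS10B and RPS13 at gene bodies. With the block, Rvb1 against Rvb2 gave 0 and 0 (medians -0.07 and 0.04).

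Counting error at the median count was 0.08 to 0.12 log2 at promoters in a pulldown library. Motif and protein identity comparisons were not run.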
